A study of Mus musculus with 16 samples.

Results

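Ceramide is the hub of sphingolipid metabolism, and the transcripts described here are those of 10 enzymes that make or break it, together with their best separated member, the alkaline ceramidase Acer2. The genes are Acer2, Acer3 and Asah1 (ceramidases), Cers1, Cers2, Cers4, Cers5 and Cers6 (ceramide synthases), Degs1 (dihydroceramide desaturase) and Sptlc1 (a subunit of serine palmitoyltransferase). All probes annotated to them were taken, 20 of 45281 on the array. The set was chosen by the difference of Acer2 between HeCo and wild-type brain in these same arrays, so the differences of Acer2 and of the other 9 genes between the genotypes are given as a description, with no test.

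RNA came from mouse brain at embryonic day 18 and was hybridised to 16 Illumina bead arrays read in 1 colour. HeCo mutants gave 8 of them and wild-type (control) embryos the other 8, all of the NOR/CD-1 strain. The gene mutated in HeCo mice is Eml1, whose product binds microtubules, and the mutants form a heterotopia, a band of misplaced neurons under the cortex. The labels give no zygosity, sex, dissection or statement that each array was a separate animal, so errors measure only the spread between these arrays. Arrays are named below by genotype and title number. The deposited mean signal of an array ran from 377.5 to 597.9 in HeCo and from 374.9 to 459.3 in wild type. Between 18322 and 19553 probes were detected on HeCo arrays and between 17694 and 18777 on wild-type arrays, a probe being called detected at a detection p under 0.05. Precision is limited by how many arrays there are. An Eml1 probe (ILMN_1214866) was detected on no HeCo array and on all 8 wild-type arrays, and a second one (ILMN_3137207) was detected on all 8 HeCo arrays and on no wild-type array. The second probe averaged 6.51 ± 0.37 in HeCo and 4.57 ± 0.09 in wild type (SD, n = 8 each), the first 4.51 ± 0.08 in HeCo and 8.51 ± 0.15 in wild type, so each probe separated the arrays as labelled and Eml1 signal was not simply absent in HeCo. HeCo 7 and HeCo 16 were low in diencephalic, midbrain and hindbrain markers, whose summed signal on the linear normalized scale ran from 1042 to 5383 in HeCo and from 3234 to 4312 in wild type.

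Ceramide is built in the endoplasmic reticulum. Serine palmitoyltransferase makes the first long-chain base, ceramide synthases join it to a fatty acid of a length that each enzyme prefers, and a desaturase turns the product into ceramide. Ceramide is then used for sphingomyelin and glycosphingolipids, which are abundant in neuronal membranes and myelin. Ceramidases cut it into a fatty acid and sphingosine, from which sphingosine 1-phosphate, a lipid signal read by its own receptors, is made.

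Acer2, the alkaline ceramidase of the Golgi, had a higher signal in HeCo brain. Its single probe (ILMN_2629112) was detected on all 16 arrays. On the normalized log2 scale the HeCo arrays ran from 6.63 through a median of 7.03 to 7.37, against 5.73, 6.34 and 6.69 in wild type. HeCo 8 was the highest array of all and wild type 9 the lowest, and 7 of 8 HeCo arrays lay above every wild-type array. The groups overlapped through HeCo 6, at 6.63, which lay just under wild type 3, at 6.69, and next to wild type 4, at 6.63. Acer2 averaged 7.03 ± 0.21 in HeCo and 6.30 ± 0.32 in wild type (SD, n = 8 each), a log2 difference of 0.73 (SE 0.12, 95% interval 0.48 to 0.98), or 1.66-fold. In whole tissue, fewer or more cells of a type and less or more RNA per cell cannot be told apart. Over all 10624 genes measured, 15 had a larger difference in either direction.

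The signals as deposited, before any correction, overlapped more. They ran from 158.5 through a median of 195.3 to 260.2 in HeCo and from 108.4 through 135.8 to 176.0 in wild type. HeCo 6 and HeCo 14 lay below wild type 4, the highest wild-type array. The highest deposited value belonged to HeCo 15, the array with the highest mean signal over all probes, and after normalization that array lay below its group's median. The size of the difference depended on the background treatment, and it was 0.45 (SE 0.07) with quantile normalization and no background correction.

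**Figure D1:**
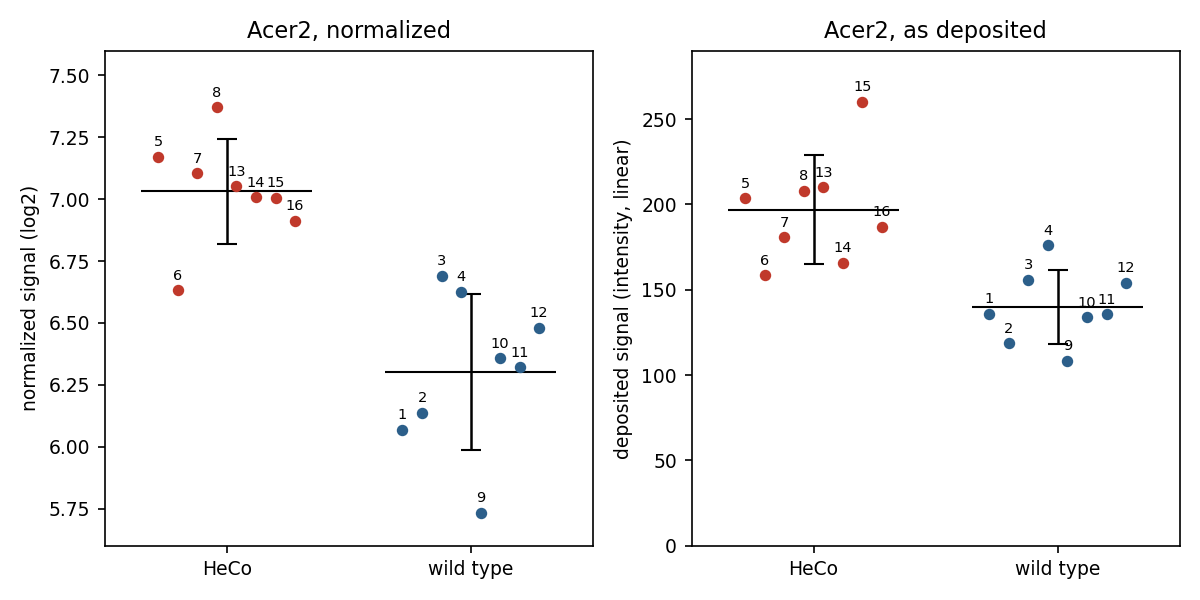
Acer2 signal on each array, HeCo on the left and wild type on the right, as normalized log2 signal (left panel) and as deposited intensity on a linear scale (right panel). Points are arrays with their title numbers, lines the group means and bars 1 SD (n = 8 each); after normalization 7 of 8 HeCo arrays lie above all wild-type arrays, and HeCo 6 does not.

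The Acer2 difference was 0.65 to 0.81 in the runs of the sample numbers. The runs divide the same arrays whose contrast chose Acer2, so their likeness is given as description only. Title numbers come in runs of 4 by genotype (HeCo has 5 to 8 and 13 to 16, wild type has the rest), so batches that match these runs of 4 cannot be told apart from genotype. The runs alternate between the genotypes, and with title numbers 1 to 8 and 9 to 16 as a block the difference was 0.73 (SE 0.12). Within title numbers 1 to 8 Acer2 averaged 7.07 in HeCo and 6.38 in wild type (n = 4 each), and within 9 to 16 it averaged 6.99 in HeCo and 6.22 in wild type (n = 4 each). These are differences of 0.69 and 0.77. The second set of numbers, in the sample descriptions, mixes the genotypes. There the difference was 0.81 within numbers 1 to 8 and 0.65 within 9 to 16. Within description numbers 1 to 6, 7 to 12 and 13 to 16 it was 0.75 (4 HeCo, 2 wild type), 0.79 (1 and 5) and 0.72 (3 and 1). The HeCo arrays varied least in title numbers 13 to 16, from 6.91 to 7.05. Leaving out HeCo 7 and HeCo 16 together gave a difference of 0.74 (SE 0.14).

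**Figure D2:**
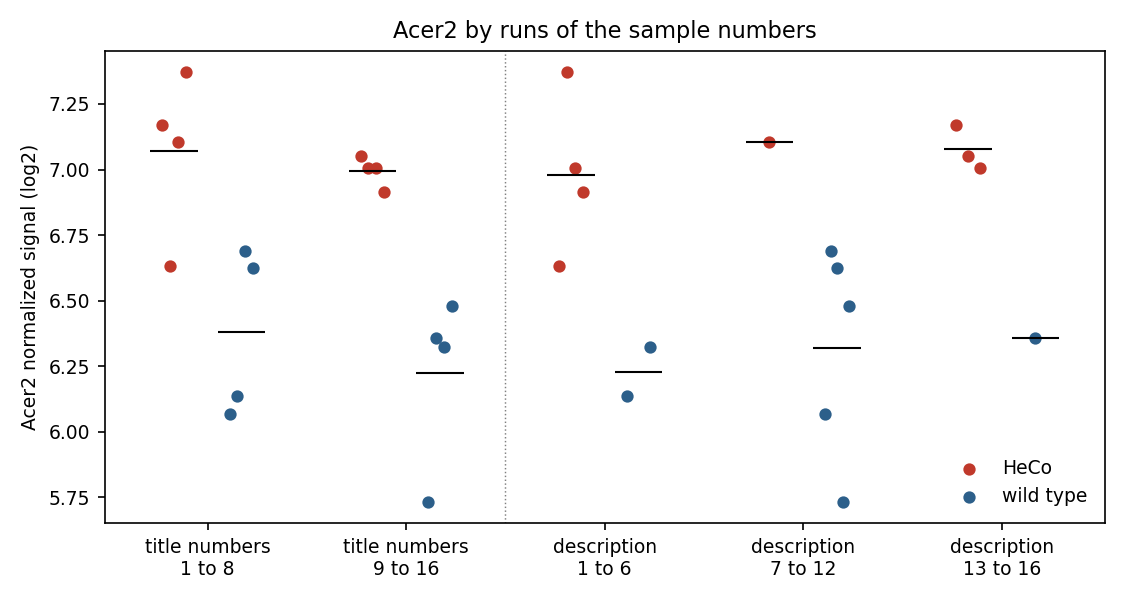
Normalized log2 signal of Acer2 by runs of the title numbers (left of the dotted line) and of the description numbers (right), HeCo in red to the left and wild type in blue to the right of each pair; points are arrays and lines are means. HeCo means lie between 6.98 and 7.11 and wild-type means between 6.22 and 6.38 in all 5 runs, and the only overlap is in title numbers 1 to 8.

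In the limma fit over all genes, 6 of 10624 (0.0565%) passed an adjusted p of 0.05, and Acer2 was 1 of the 4 that were higher in HeCo (0.0377% of all genes, against 0.0188% lower). That call is what chose the gene, so nothing is read from it here. The call was lost without HeCo 5, without HeCo 8, without wild type 2, with no filter on dim probes, with description numbers in runs of 6 as a block, and within each run of 8 title or description numbers, while the difference itself stayed between 0.65 and 0.79 over the 16 arrays left out in turn.

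The promoter of Acer2 is shown because it belongs to the member that differed most. It is the stretch of 250 bases before the annotated start on the plus strand of chromosome 4 in RefSeq's GRCm38.p6 annotation (chr4:86874164-86874413), with the 2 GC boxes in capitals.
Acer2 promoter: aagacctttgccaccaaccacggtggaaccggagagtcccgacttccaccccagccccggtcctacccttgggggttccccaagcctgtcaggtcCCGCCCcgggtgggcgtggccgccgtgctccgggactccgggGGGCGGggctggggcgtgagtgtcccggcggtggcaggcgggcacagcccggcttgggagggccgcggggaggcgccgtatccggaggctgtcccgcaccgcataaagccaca
The window was searched on both strands for the GC box (GGGCGG), the CCAAT box (CCAAT), the TATA box (TATAAA), the E-box (CACGTG), the core of the hypoxia response element (ACGTG, which lies within the E-box) and the p53 half-site. It held GC boxes at positions -155 to -150 and -113 to -108 from the start and no match to the other 5. GC boxes are bound by Sp family factors, and 32.7% of 32851 promoter windows of the same length held at least 1. G and C made up 73.2% of the window and it held 24 CpG dinucleotides, against medians of 52.4% and 6 over all windows. Windows were found for 9 of the 10 genes, and Asah1 was not matched. Among the others, the GC box was found in a window of Acer3, Cers1, Cers2, Cers4, Cers5 and Sptlc1. It was not found for Degs1 or Cers6. Acer3 and Cers2 had 2 windows each, and window 2 of each held no GC box. Such matches describe letters and do not show binding. Acer2 lies on chromosome 4 and none of the 10 genes lies on chromosome 12, which carries Eml1.

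Across all members, 13 of the 20 probes were detected on at least 8 of the 16 arrays and entered the fit, standing for 9 of the 10 genes. Of the other 7 probes, 5 were detected on no array. Of the 13, only that of Acer2 was called in the fit over all probes, where 16 of 18532 (0.0863%) were called, 0.054% higher and 0.0324% lower in HeCo. No member probe separated the groups without overlap, which 0.124% of all probes did. The 95% interval left out 0 for 3 of the 13 probes (Acer2, Sptlc1 and 1 probe of Cers2), against 6.98% of all kept probes. These shares come from the contrast that chose the members and carry no weight beyond description. The median log2 difference over the 9 genes was 0.04, against -0.01 over all 10624 genes, and 7 of the 9 were above 0, against 48.1% of all genes.

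**Figure D3:**
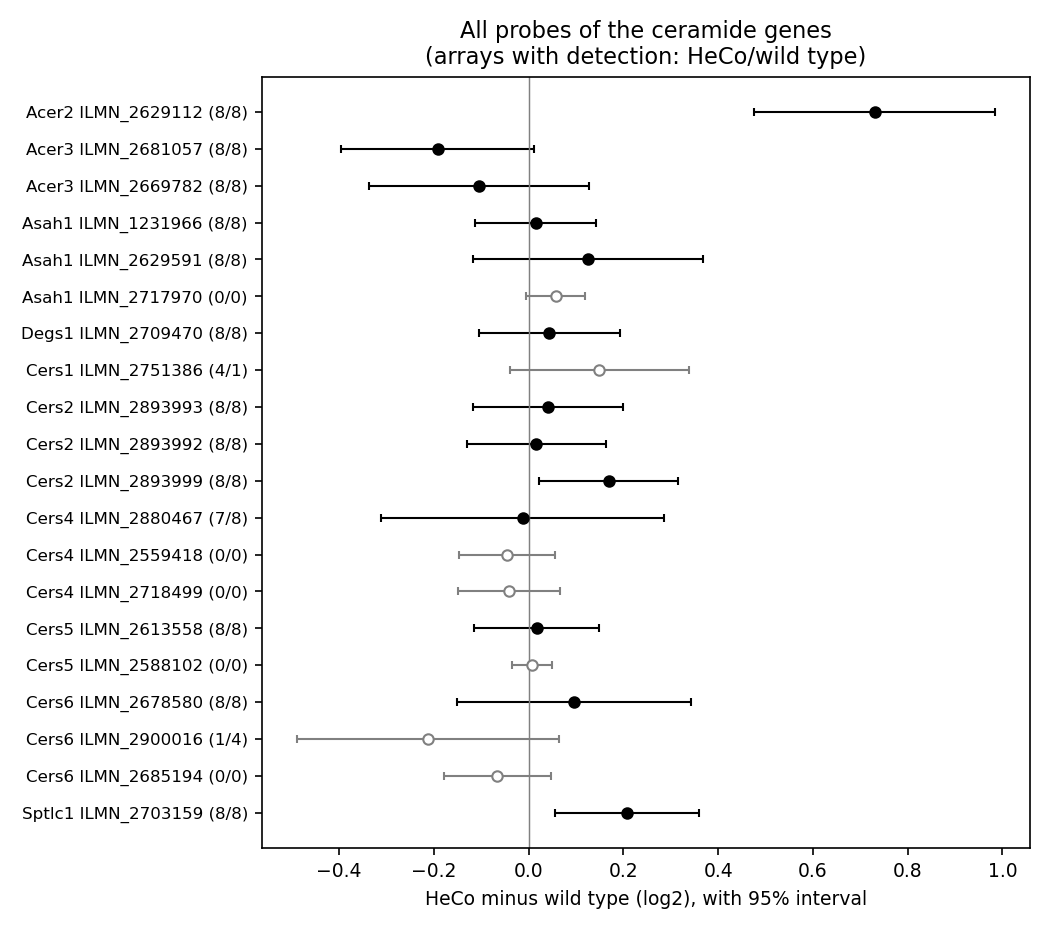
Log2 difference, HeCo minus wild type, of all 20 probes of the 10 genes, with 95% intervals from the limma fit; filled points are probes detected on at least 8 arrays, open grey points the 7 that were not, and the numbers after each name count the HeCo and wild-type arrays with detection. Acer2 stands at 0.73 and the other 12 filled points lie between -0.19 and 0.21.

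The other measured ceramidases had differences near or below 0 on their brightest probes. Acer3, the alkaline ceramidase of the endoplasmic reticulum and Golgi, is the nearest relative of Acer2 among the members. Its brighter probe (ILMN_2681057) ran from 7.59 through a median of 8.09 to 8.28 in HeCo and from 7.96 through 8.21 to 8.45 in wild type. The groups overlapped widely, and HeCo 7 and HeCo 16, at 7.59 and 7.70, were the lowest arrays. The log2 difference was -0.19 (SE 0.10, 95% interval -0.40 to 0.01), and it was -0.13 without HeCo 7 and -0.07 (SE 0.08) without both HeCo 7 and HeCo 16. The dimmer probe of Acer3 (ILMN_2669782) had -0.10 (SE 0.11), and 2 of 8 HeCo arrays lay above its wild-type mean. Asah1 encodes acid ceramidase, the lysosomal enzyme whose loss causes Farber disease in humans. Its brightest probe (ILMN_1231966) ran from 10.47 through 10.64 to 10.85 in HeCo and from 10.53 through 10.60 to 10.75 in wild type, so HeCo enclosed the wild-type range. Its log2 difference was 0.01 (SE 0.06, 95% interval -0.11 to 0.14). The second detected probe of Asah1 (ILMN_2629591) had 0.13 (SE 0.12), with wild type 1 the highest array at 7.29. The last probe (ILMN_2717970) was detected on no array.

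No ceramide synthase probe that entered the fit differed by more than 0.17 on the log2 scale between the genotypes. Cers2, which makes very long-chain ceramides and is needed for stable myelin, was read by 3 probes. The brightest (ILMN_2893993) ran from 10.60 through 10.83 to 11.19 in HeCo and from 10.63 through 10.79 to 11.00 in wild type, a log2 difference of 0.04 (SE 0.08). The next (ILMN_2893992) had 0.02 (SE 0.07). The dimmest (ILMN_2893999) had 0.17 (SE 0.07), from 7.57 through 7.73 to 7.81 in HeCo and from 7.28 through 7.58 to 7.69 in wild type. On that probe 6 of 8 HeCo arrays lay above every wild-type array, which the brighter 2 probes did not show. Cers5 and Cers6 both make long-chain ceramides with palmitate. Cers5 (ILMN_2613558) ran from 10.29 through 10.37 to 10.56 in HeCo and from 10.21 through 10.33 to 10.56 in wild type, with a log2 difference of 0.02 (SE 0.06, 95% interval -0.12 to 0.15).

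The dimmer synthase probes were less precise. Cers6 (ILMN_2678580) ran from 5.50 through 6.02 to 6.11 in HeCo and from 5.19 through 5.88 to 6.18 in wild type. Its log2 difference was 0.10 (SE 0.12), and wild type 10, the lowest array, carried most of it, since without that array it was 0.0056 (SE 0.10). A second Cers6 probe (ILMN_2900016) passed detection on 1 HeCo array and 4 wild-type arrays and had a lower mean in HeCo (-0.21, SE 0.13), opposite in sign to the first. Cers4 (ILMN_2880467) passed detection on every array but HeCo 13. It ran from 4.99 through 5.86 to 6.28 in HeCo and from 5.46 through 5.84 to 6.28 in wild type, with a log2 difference of -0.01 (SE 0.14) that became 0.11 without HeCo 13, the array on which it was not detected. Cers1, the synthase of stearoyl ceramides that is best known from neurons, was near background. Its single probe (ILMN_2751386) passed detection on 4 HeCo arrays and 1 wild-type array, and it ran from 4.61 through 4.99 to 5.12 in HeCo and from 4.60 through 4.82 to 5.01 in wild type, so its difference has no firm size.

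Sptlc1 and Degs1, which act at the first and last steps on the way to ceramide, were each read by 1 probe, detected on all arrays. Sptlc1 encodes a subunit of serine palmitoyltransferase, the first and rate-limiting enzyme. Its probe (ILMN_2703159) ran from 9.17 through 9.37 to 9.53 in HeCo and from 8.92 through 9.21 to 9.35 in wild type. All HeCo arrays but HeCo 5 lay above the wild-type mean, and 6 of 8 lay above every wild-type array. The log2 difference was 0.21 (SE 0.07, 95% interval 0.06 to 0.36), or 1.16-fold, and it was 0.15 to 0.26 over the 33 alternatives. Within description numbers 1 to 6, 7 to 12 and 13 to 16 it was 0.23 (4 HeCo, 2 wild type), 0.38 (1 and 5) and -0.03 (3 and 1), so the sign turned in the last run, which holds 1 wild-type array. Degs1, the desaturase of the last step, ran from 10.92 through 11.18 to 11.33 in HeCo and from 10.96 through 11.11 to 11.35 in wild type (ILMN_2709470). Its log2 difference was 0.04 (SE 0.07, 95% interval -0.10 to 0.19), and the groups overlapped over almost their whole range.

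**Figure D4:**
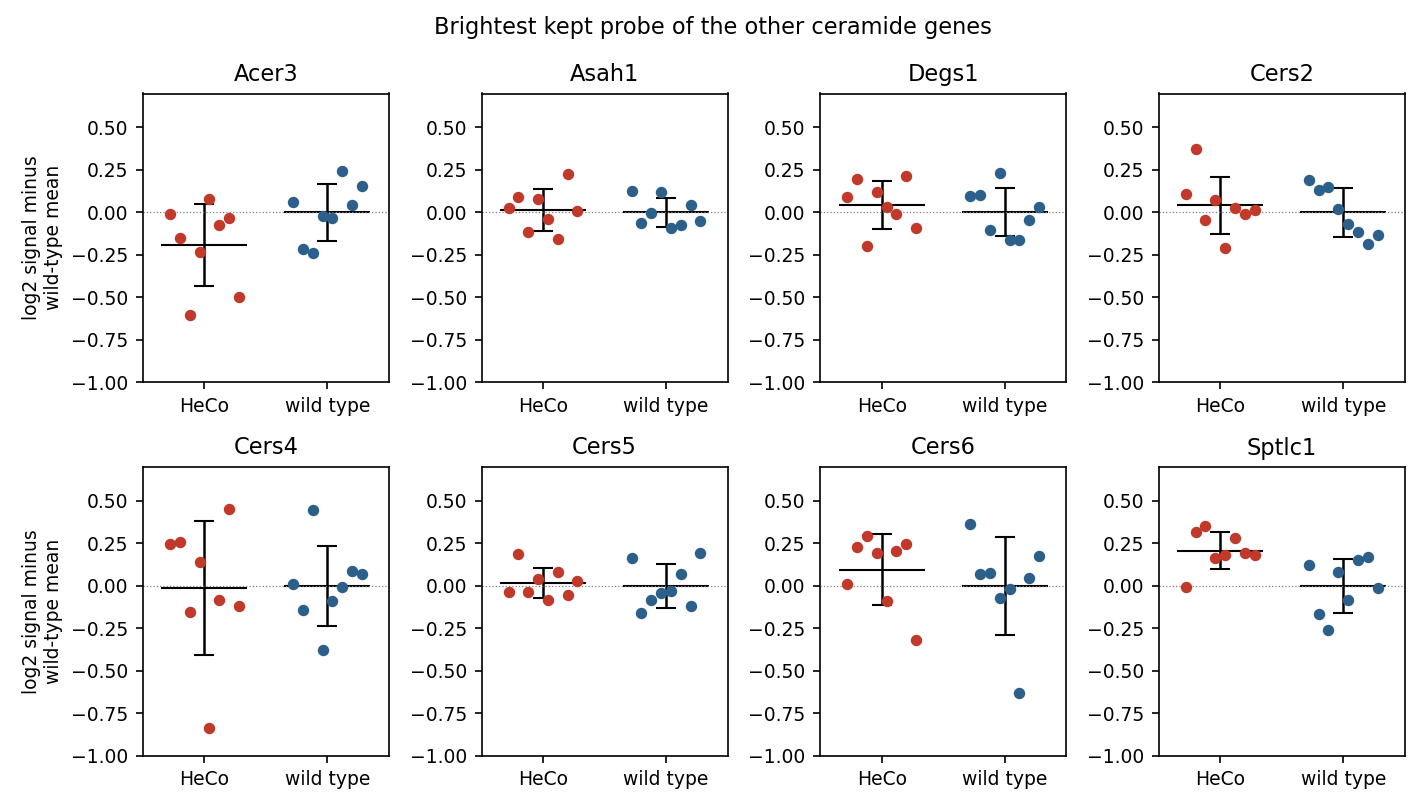
Log2 signal minus the wild-type mean on each array for the brightest kept probe of the 8 other measured genes, HeCo on the left and wild type on the right of each panel; points are arrays, lines means and bars 1 SD (n = 8 each). Sptlc1 has the largest difference of the 8, Cers4 is low on HeCo 13 and Cers6 is low on wild type 10.

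Within each genotype the correlations between members lay on both sides of 0. Deviations of each array from its own genotype's mean were compared, so that the difference between genotypes plays no part. Over 36 pairs of the 9 measured genes, Pearson's r over 16 arrays ran from -0.25 to 0.72 with a median of 0.11. Over all pairs of 10623 genes the median was 0.001, with 95% of pairs between -0.63 and 0.64. The highest pair was Asah1 with Degs1 (r = 0.72), and the next was Cers2 with Cers4 (r = 0.48). The r of Acer2 with the other 8 lay between -0.20 with Cers2 and 0.10 with Asah1. All these values share arrays and their normalization, and they are descriptions. Probes of 1 gene did not follow each other closely. Their r was 0.38 for the 2 Acer3 probes, -0.05 for the 2 Asah1 probes and -0.17 to 0.22 for the 3 Cers2 probes. A low r between genes here therefore cannot show that their transcripts varied apart.

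The genes whose deviations were most like those of Acer2, among 9302 genes detected on all arrays, were Map3k11 (r = 0.85, Spearman's rho = 0.83), Tgfbr2 (r = 0.81, rho = 0.91), P2ry14 (r = 0.81, rho = 0.75), Plekhg3 (r = 0.80, rho = 0.85) and Chst10 (r = 0.76, rho = 0.72), each over 16 arrays. The most opposite were Atp5pb (r = -0.82, rho = -0.75) and Ptbp2 (r = -0.81, rho = -0.76). The middle 95% of all genes lay between -0.57 and 0.54. Map3k11 encodes a kinase of the JNK pathway, Tgfbr2 a TGF-beta receptor and P2ry14 a receptor for UDP-glucose. These genes are the extremes of a large search on few arrays. None was called between the genotypes, and their log2 differences ran from -0.10 for Map3k11 (SE 0.08, limma adjusted p = 0.832) to 0.20 for P2ry14 (SE 0.07, limma adjusted p = 0.603).

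Markers of other cell types were set beside Acer2. The mean log2 signal of the measured markers of the meninges had r = 0.48 with Acer2 over deviations from the genotype means, that of the oligodendrocyte lineage 0.43, of endothelium and pericytes 0.42, of microglia and macrophages 0.39, of choroid plexus 0.32, of red blood cells 0.12, of cortical neurons 0.05, of the diencephalon, midbrain and hindbrain -0.0026 and of radial glia -0.29. Of the meningeal markers, 5 of 6 were detected on at least 8 arrays, none was undetected on every array, and their summed signal ran from 2767 to 3347 in HeCo and from 1734 to 3392 in wild type. Of the oligodendrocyte lineage markers, 4 of the 5 on the array were detected on at least 8 arrays, none was undetected on every array, and the sum ran from 5655 to 7797 in HeCo and from 5196 to 7415 in wild type. For microglia and macrophages, with 6 of 6 markers detected on at least 8 arrays, the sum ran from 2217 to 2451 in HeCo and from 1849 to 2378 in wild type. The ranges overlapped for these 3 lists, and their medians were higher in HeCo. That was not particular to them. The median sum was also higher in HeCo for choroid plexus (23535 against 20195 in wild type) and for endothelium and pericytes (4167 against 3755). It was higher too for cortical neurons (7779 against 7221), radial glia (10374 against 10252) and the diencephalon, midbrain and hindbrain (4204 against 4079). For red blood cells it was lower (80994 against 84267). The medians were 2913 in HeCo and 2500 in wild type for meninges, 6621 in HeCo and 5721 in wild type for the oligodendrocyte lineage, and 2338 in HeCo and 2107 in wild type for microglia and macrophages. The mean log2 signal differed by 0.21 for meninges, 0.14 for the oligodendrocyte lineage and 0.08 for microglia and macrophages. It differed by 0.16 for cortical neurons, 0.04 for choroid plexus and 0.0046 for red blood cells. Endothelium and pericytes had -0.02 and radial glia -0.11. The markers of diencephalon, midbrain and hindbrain had -0.66 (9 of 10 detected on at least 8 arrays, Pax7 on none). Their median sum was nonetheless higher in HeCo, and HeCo 7 and HeCo 16 were low in them. The part of any of these lists in the difference of Acer2 was not tested.

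The rest of sphingolipid metabolism gave no call. A list of 64 further genes was drawn up by role, of which 61 had a probe and 44 were detected well enough to be tested. None of the 44 passed in either direction in the limma fit over all genes, at a background of 0.0565%. At that share a list of 44 genes would likely hold no call, so this does not show an unchanged pathway. The same holds for each shorter list below. At an unadjusted p under 0.05 there were 5, which were 2 higher and 3 lower in HeCo, against 7.22% of all genes. The median log2 difference of the 44 was -0.02, against -0.01 over all genes, and 18 were above 0.

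The gene of this list nearest to the threshold was Sgms1, sphingomyelin synthase 1, which turns ceramide into sphingomyelin in the Golgi. It ran from 7.47 through a median of 7.68 to 7.89 in HeCo and from 7.15 through 7.31 to 7.63 in wild type. Each of the 8 HeCo arrays exceeded the mean of wild type, and the ranges overlapped. The log2 difference was 0.36 (SE 0.08, limma adjusted p = 0.203, and 0.101 to 0.999 over the alternatives). Of the 8 sphingomyelin genes tested, 4 were above 0 and none passed, and the acid sphingomyelinase Smpd1 had -0.09 (SE 0.06, limma adjusted p = 0.769), its other detected probes standing at 0.08 (SE 0.10) and -0.08 (SE 0.07).

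Genes upstream of ceramide were sparsely measured. Of 10 listed, 3 were tested and none passed. Sptssa, a small subunit that activates serine palmitoyltransferase, stood at 0.11 on the log2 scale (SE 0.09, limma adjusted p = 0.836), and Ormdl3, an inhibitor of that enzyme, had -0.06 (SE 0.07, limma adjusted p = 0.879). Sptlc2, which pairs with Sptlc1, did not pass the filter on dim probes, nor did Cers3 or Degs2. Of the other ceramidases, Acer1 did not pass the filter, and the neutral ceramidase Asah2 had -0.04 (SE 0.13, limma adjusted p = 0.948).

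Of the genes that act on the product of ceramidases, none of 8 tested for sphingosine and sphingosine 1-phosphate passed. The lipid phosphatase Plpp2 had the smallest p of these and stood at -0.17 on the log2 scale (SE 0.07, limma adjusted p = 0.675), with a second probe at -0.19 (SE 0.10), and Plpp1 had -0.06 (SE 0.05, limma adjusted p = 0.842), with 0.06 (SE 0.08) on its second probe. The sphingosine kinases Sphk1 and Sphk2, named after their values were seen as the next step after Acer2, had 0.09 (SE 0.15) and 0.02 (SE 0.09). Of 5 receptors for sphingosine 1-phosphate, 2 were tested and neither passed. S1pr2 had -0.10 (SE 0.07, limma adjusted p = 0.793) and S1pr5, the receptor known from oligodendrocytes, -0.12 (SE 0.10, limma adjusted p = 0.836). A second probe had -0.14 (SE 0.10) for S1pr2 and -0.0043 (SE 0.13) for S1pr5. Of 4 genes tested for transfer of ceramide or related lipids, none passed, and Cerk of the same list had no probe. The ceramide transfer protein Cert1 had -0.05 (SE 0.08, limma adjusted p = 0.906) and the transporter of ceramide 1-phosphate Cptp -0.08 (SE 0.08, limma adjusted p = 0.852). The other detected Cert1 probes had 0.13 (SE 0.12) and -0.09 (SE 0.09).

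Of 11 genes tested for glycosphingolipid synthesis, 5 were above 0 and none passed. B4galt5, a lactosylceramide synthase, ran from 5.96 through 6.18 to 6.56 in HeCo and from 5.38 through 5.82 to 6.31 in wild type. Its log2 difference was 0.33 (SE 0.13, limma adjusted p = 0.604), and each of the 8 HeCo arrays exceeded the mean of wild type. B4galnt1, the GM2 and GD2 synthase of complex gangliosides, ran from 8.14 through 8.31 to 8.57 in HeCo and from 8.38 through 8.45 to 8.68 in wild type. Its log2 difference was -0.20 (SE 0.07, limma adjusted p = 0.589), and its second probe had -0.27 (SE 0.13). Of 7 genes tested for glycosphingolipid breakdown, 2 were above 0 and none passed. The sulfatidase Arsa had -0.17 (SE 0.08, limma adjusted p = 0.678) and the beta-galactosidase Glb1 -0.11 (SE 0.06, limma adjusted p = 0.740).

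**Figure D5:**
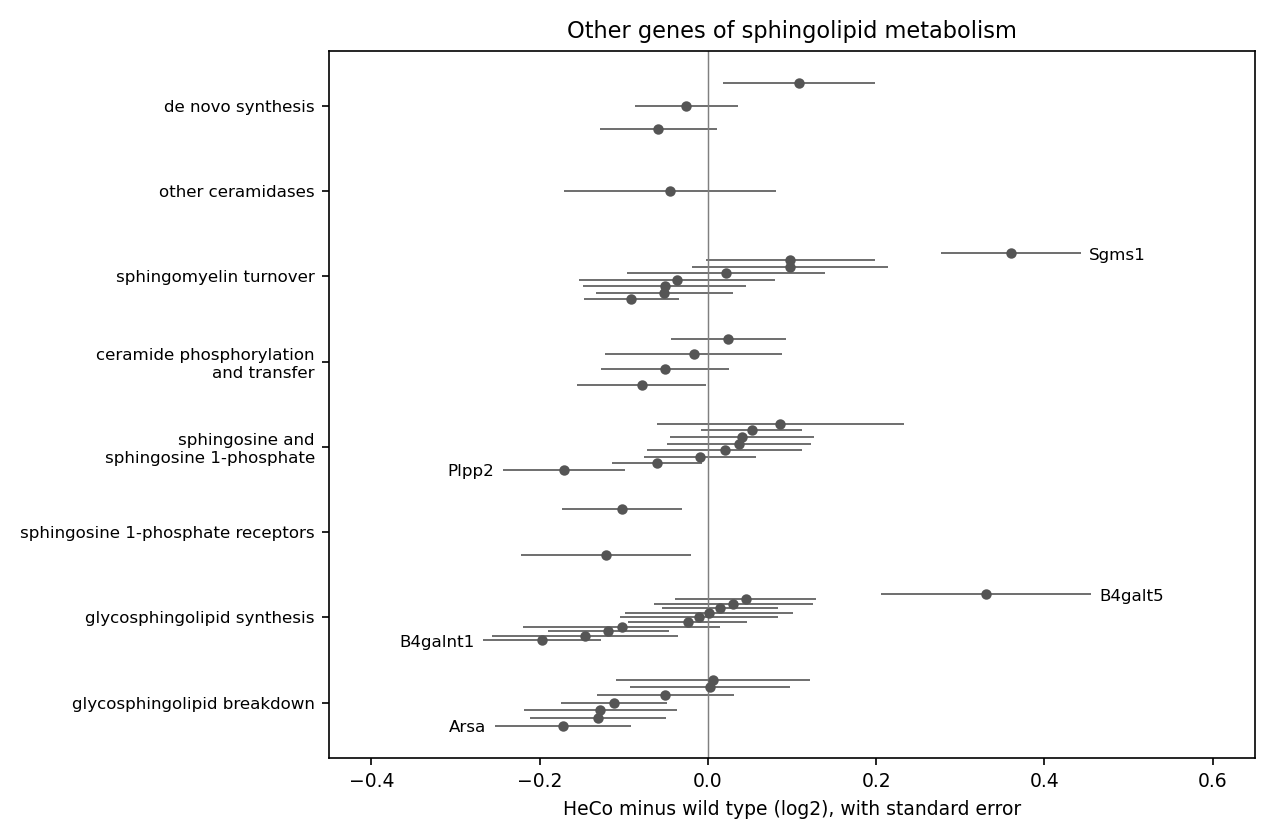
Log2 difference, HeCo minus wild type, of the 44 tested genes of sphingolipid metabolism outside the 10 members, by role, with standard errors; the 5 genes at an unadjusted p under 0.05 are named. None passes after adjustment over all genes, and Sgms1 is the highest at 0.36.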

How the data were processed

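RNA of 16 mouse brain samples had been amplified with biotin and hybridised to Illumina bead arrays, per the labels' protocols. The table deposited by the authors gives an intensity on a linear scale and a detection p-value per probe and array, with no normalization visible, and the submitters' processing notes name GenomeStudio with no version. The authors also deposited a series matrix of intensities. They differed by at most 0.00474 (log2) from a quantile normalization with no background step, with column medians of 85.16 to 85.21. It served as an alternative.

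Signals were corrected and quantile-normalized with neqc (R 4.3.3, limma 3.58.1, offset 16, its negative-control level estimated out of the detection p-values). A probe was kept where its detection p was below 0.05 on 8 or more arrays (18532 of 45281). Gene symbols came from the platform annotation (34885 probes with 1 symbol, 18 with several, 10378 not listed), updated through Entrez identifiers for 34807 probes. The brightest probe stood for a gene (10624 genes). HeCo minus wild type was fitted with lmFit and eBayes with trend, two-sided, without covariates, with Benjamini-Hochberg adjustment across all genes or all probes. The offset shrinks differences of dim probes. Plots were made with matplotlib 3.10.9 under Python 3.11.15.

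The members and lists (8 of pathway genes, 9 of markers) were chosen with earlier results of these data known. Named are all members, pathway genes past the threshold or else the 2 with the smallest p of each list, and the 5 genes most like and 2 least like Acer2. Alternatives covered background, normalization, filters, variance model, array weights, number runs and arrays left out. The fit was tested on simulated data.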

Additional observations from a re-analysis of the deposited data

Results flagged for a closer look

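Each of the 13 kept member probes was searched within each genotype (26 groups of 8 arrays) for an array whose gap to its nearest neighbour exceeded Dixon's 95% critical share of the group's range, which chance gives in about 1 of 20 groups. There were 2. Cers4 (ILMN_2880467) stood at 4.99 on HeCo 13, with the next array at 5.68, and the probe was not detected there. Cers6 (ILMN_2678580) stood at 5.19 on wild type 10, with the next array at 5.75; wild type 10 also had the fewest detected probes of all arrays (17694). The cause of either value was not tested.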

How the results depend on the processing

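No paired analysis was possible because the genotypes share no title number. The Acer2 difference, described on the arrays that chose the gene, was positive under all 33 alternatives, from 0.45 to 0.81. It was 0.45 without background correction and 0.45 in the series matrix values, 0.54 with an offset of 50, and 0.65 to 0.79 with each array left out; the cause was not tested. Acer2 stayed called in 24 of 33. The median difference of the 8 other measured members lay between -0.05 and 0.07, and Acer3 was negative and Sptlc1 and Cers6 positive in all 33, while the signs of Asah1, Cers2, Cers4, Cers5 and Degs1 varied. No pathway gene was called in any alternative. Counts over all genes moved more, from 1 to 9 genes and from 4 to 20 probes over all 33 alternatives. Against 6 genes, 9 were called with array weights, 8 with no mean-variance trend, 8 without both HeCo 7 and HeCo 16, 2 with description numbers in runs of 6 as a block, 1 and 2 within title numbers 1 to 8 and 9 to 16, 2 and 1 within description numbers 1 to 8 and 9 to 16 (each with fewer arrays), and 2 to 7 with each array left out (2 without HeCo 5, HeCo 8 or wild type 2, 3 without HeCo 15 or wild type 9). Against 16 probes, 20 were called with array weights and 20 with title numbers 1 to 8 and 9 to 16 as a block, 8 among probes detected on all arrays, 10 with no filter, 9 with the runs of 6 as a block, 5 and 5 within the title runs, 6 and 4 within the description runs, and 7 to 17 with each array left out (7 without wild type 2, 9 without HeCo 5, HeCo 14 or wild type 3, 10 without HeCo 13, wild type 4 or wild type 9). Of the 5 genes most like Acer2, 3 were shared with the ranking by Spearman's rho and 2 with the ranking without HeCo 7 and HeCo 16. Signal near background limits Cers1, Cers4 and Cers6. Acer2 was dim too, at 108.4 to 176.0 as deposited in wild type, against 101.7 to 133.5 for Cers4 (ILMN_2880467). Its probe was detected on all arrays.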
